A study of Mus musculus with 23 samples.

Results

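Collagens and laminins are the main structural proteins of the matrix around liver cells, and the genes of their chains were followed here across 6 groups of mouse livers. The members are all genes in the table of estimated counts whose symbol names a collagen alpha chain or a laminin alpha, beta or gamma chain (symbols of the form Col1a1, Lama1, Lamb1 or Lamc1). This gave 55 genes of 24440, of which 36 had enough counts to be tested. The livers came from male C57Bl/6 mice that were 6 to 8 weeks old when they arrived from the supplier. The 6 groups were IL-10/IL-4 double knockout mice (dKO), IL-4 knockout mice (IL4KO) and wild type mice (WT), each on a diet with 60% of its energy from fat (HFD) or on normal chow for 15 weeks. Each group held 4 mice except IL4KO on HFD, which held 3, so the series has 23 libraries. Both mutant genotypes share the loss of IL-4, and dKO mice are labelled as also lacking IL-10. The labels name no Cre driver or transgene. The livers were perfused before RNA was taken from a piece of whole tissue.

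A collagen molecule is a triple helix of alpha chains. Fibrillar collagens such as types I, III and V form the fibres that build up in fibrotic liver, where hepatic stellate cells and portal fibroblasts are known as their main sources. Collagen IV forms sheets in basement membranes, and collagen VI forms beaded filaments between cells and fibres. Laminins are cross-shaped trimers of an alpha, a beta and a gamma chain that organise basement membranes. In the liver, laminins are best known around bile ducts and blood vessels, since the normal sinusoid has no continuous basement membrane.

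Library totals ran from 7.11 to 30.2 M counts (M stands for 1e6), with 12.7 to 25.5 M in dKO on HFD, 16.2 to 30.2 M in dKO on chow, 7.79 to 8.94 M in IL4KO on HFD, 7.11 to 11.2 M in IL4KO on chow, 8.6 to 18.2 M in WT on HFD and 10.9 to 12.5 M in WT on chow. No library had more than 3 counts of Il4. Il10 had 6 to 21 counts in libraries labelled dKO on HFD, 41 to 67 counts in libraries labelled dKO on chow and at most 4 counts in any other library, which goes against the label. Counts per gene symbol do not show whether the deleted part of a gene was read. Every direction below that involves dKO therefore rests on libraries labelled dKO. Hepatocyte markers summed to between 85400 and 136000 CPM (counts per 1e6 after scaling for library composition), which fits the labelled tissue. The muscle marker Myh4 and the adipocyte marker Plin1 had 0 counts in all libraries. Of the 4 adipocyte markers only Cfd, the serum protease adipsin, had enough counts to be tested. Cfd averaged 25.8 ± 23.5 CPM in dKO on HFD and 0.0564 ± 0.0491 CPM in dKO on chow (SD, n = 4 each; FDR 0.000392), and 20 ± 12.8 CPM in WT on HFD and 2.23 ± 1.6 CPM in WT on chow (SD, n = 4 each; FDR 0.0402, a call lost under 10 of 14 alternatives). The adipocyte list summed to 0 to 57.1 CPM in dKO on HFD, 1.9 to 41.7 CPM in IL4KO on HFD and 7.44 to 36.3 CPM in WT on HFD, against 0 to 0.119 CPM in dKO on chow, 1.9 to 7.58 CPM in IL4KO on chow and 0.652 to 4.35 CPM in WT on chow. The part of this list in the diet effects on the chains was not tested.

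**Figure D1:**
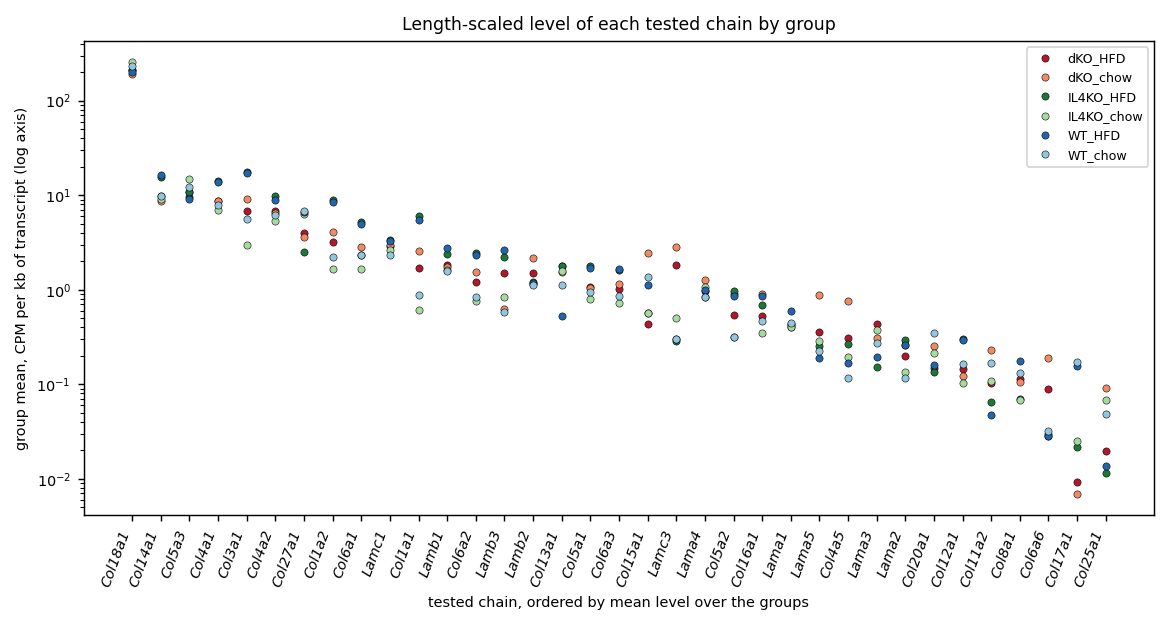
Group means of 35 tested chains in CPM per kb of transcript on a log axis, with chains ordered by their mean over the groups and 1 coloured point for each group. Col18a1 stood far above the others, and the points of Lamc3 and Col17a1 were spread widely between genotypes.

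Levels between chains are compared here as CPM per kb of the longest coding transcript. Col18a1, whose C-terminal fragment is endostatin, had by far the highest level, 217 CPM per kb as a mean over the 6 groups. Col14a1, a chain that sits on fibril surfaces, followed at 11.5 CPM per kb, and Col5a3 at 11.2 CPM per kb. Col4a1 at 10.0 CPM per kb and Col3a1 at 9.89 CPM per kb came next, and the ranges of group means of these 4 chains overlapped. Among laminin chains Lamc1, the gamma chain of most laminins, had the highest mean level, 2.91 CPM per kb.

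Of the 36 tested chains, 32 were called in at least 1 of 12 comparisons, where a call is a false discovery rate (FDR) below 0.05 in edgeR's quasi-likelihood test after adjustment over all 12891 tested genes. Log2 fold changes are given with their standard error (SE). The 4 tested chains with no call were Col8a1, Col20a1, Lama1 and Lama3. A further 19 chains had too few counts to be tested, and the highest group mean among them was 0.516 CPM. These were Col2a1, Col4a3, Col4a4, Col4a6, Col6a4, Col6a5, Col7a1, Col8a2, Col9a1, Col9a2, Col9a3, Col10a1, Col11a1, Col19a1, Col22a1, Col23a1, Col24a1, Col26a1 and Col28a1. Of these, Col10a1, Col11a1, Col19a1 and Col26a1 had 0 counts in every library.

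**Figure D2:**
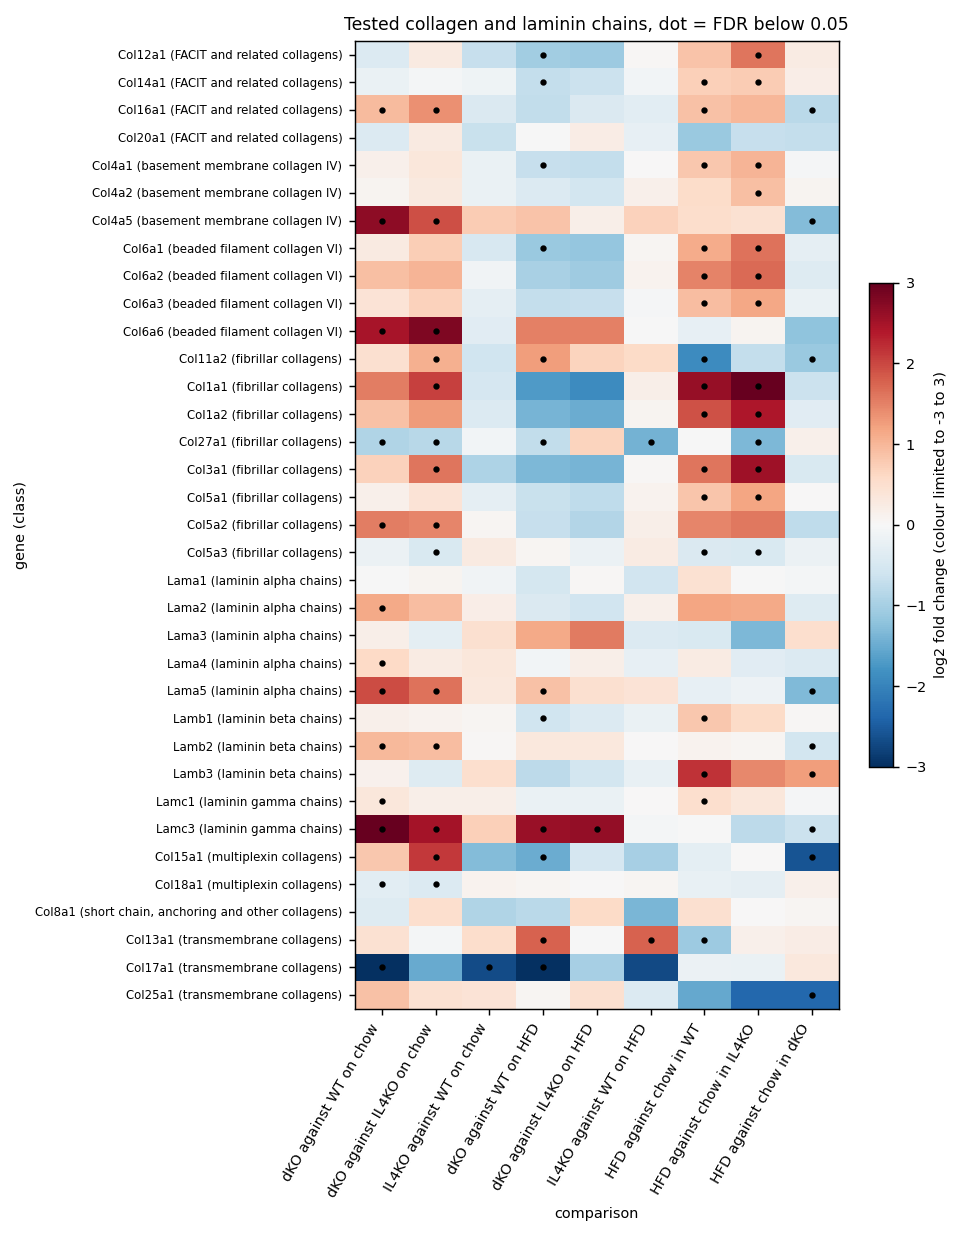
Log2 fold changes of 35 tested chains (rows, with their class) in the 9 pairwise comparisons (columns). Red is higher and blue lower in the first named group, colours are limited to between -3 and 3, and a dot marks an FDR below 0.05. Col1a1, Col1a2, Col3a1 and Col5a1 are red on HFD in WT and IL4KO, and Lamc3, Lama5 and Col4a5 are red in dKO on chow.

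In wild type livers, HFD went with higher Col1a1, Col1a2 and Col3a1, the chains of the common interstitial collagens. Of 36 tested chains, 13 rose and 3 fell, while 9.63% of all tested genes rose and 9.84% fell. The median log2 fold change of the tested chains was 0.50, against -0.0029 for all tested genes. The chains that rose were the fibril-forming Col1a1, Col1a2, Col3a1 and Col5a1, the beaded filament chains Col6a1, Col6a2 and Col6a3, the fibril-associated Col14a1 and Col16a1, the basement membrane chain Col4a1, and the laminin chains Lamb1, Lamb3 and Lamc1. Those that fell were Col5a3, Col11a2 and Col13a1. Stellate cell markers summed to 168 to 205 CPM in WT on HFD and 131 to 172 CPM in WT on chow, with 3 of 9 tested higher and 0 lower. Portal fibroblast markers summed to 13 to 15.1 CPM in WT on HFD and 6.79 to 9.62 CPM in WT on chow, with 1 of 4 tested higher. That marker was Fbln2, at 6.27 ± 0.752 CPM on HFD and 2.34 ± 0.677 CPM on chow (SD, n = 4 each). Eln (log2 fold change 0.65), Entpd2 (0.51) and Thy1 (-0.64) were not called. In whole tissue, more cells of a type and more RNA per cell cannot be told apart, and the part of these markers in the chain values was not tested.

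Col1a1 encodes the alpha 1 chain of type I collagen, and the Col1a2 product is its partner chain. In dKO livers, Col1a1 was at 16.5, 3.54, 11.9 and 8.05 CPM on HFD and 12.5, 19.1, 17.7 and 11.9 CPM on chow. Col1a1 in IL4KO livers was at 18.7, 86 and 2.97 CPM on HFD and 3.34, 4.7, 3.43 and 3.06 CPM on chow. WT values of Col1a1 were 51, 13.9, 36.4 and 26.9 CPM on HFD and 7.4, 6.12, 3.71 and 3.76 CPM on chow. On HFD every WT liver was above every WT liver on chow (log2 fold change 2.60, SE 0.69, FDR 0.0135). In dKO livers, Col1a2 was at 25.6, 9.19, 20.2 and 13.8 CPM on HFD and 21, 24.5, 23.9 and 17.4 CPM on chow. Col1a2 in IL4KO livers was at 28.1, 106 and 8.64 CPM on HFD and 6.68, 12.2, 7.44 and 9.19 CPM on chow. WT values of Col1a2 were 66.3, 26.8, 49.2 and 37.4 CPM on HFD and 18.5, 10.9, 9.15 and 8.93 CPM on chow. Col1a2 moved with its partner, again with no overlap between the diets in WT (log2 fold change 1.92, SE 0.53, FDR 0.0174). Col3a1, the type III chain found in thin reticular fibres, had the highest level per kb of the 3. In dKO livers, Col3a1 was at 63.1, 14.2, 33.3 and 40.7 CPM on HFD and 43.7, 61.4, 60.3 and 38.8 CPM on chow. Col3a1 in IL4KO livers was at 63.9, 205 and 23.7 CPM on HFD and 13.1, 22.8, 16.7 and 13.8 CPM on chow. WT values of Col3a1 were 129, 65.9, 96.7 and 90.0 CPM on HFD and 39.1, 32.5, 22.6 and 31.9 CPM on chow. The 4 WT livers on HFD all exceeded the 4 on chow (log2 fold change 1.60, SE 0.49, FDR 0.0306). For HFD in WT, the Col1a1 call held under every alternative. The Col1a2 and Col3a1 calls were lost under 3 and 6 of 14 alternatives, with FDR up to 0.0553 and 0.0849.

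**Figure D3:**
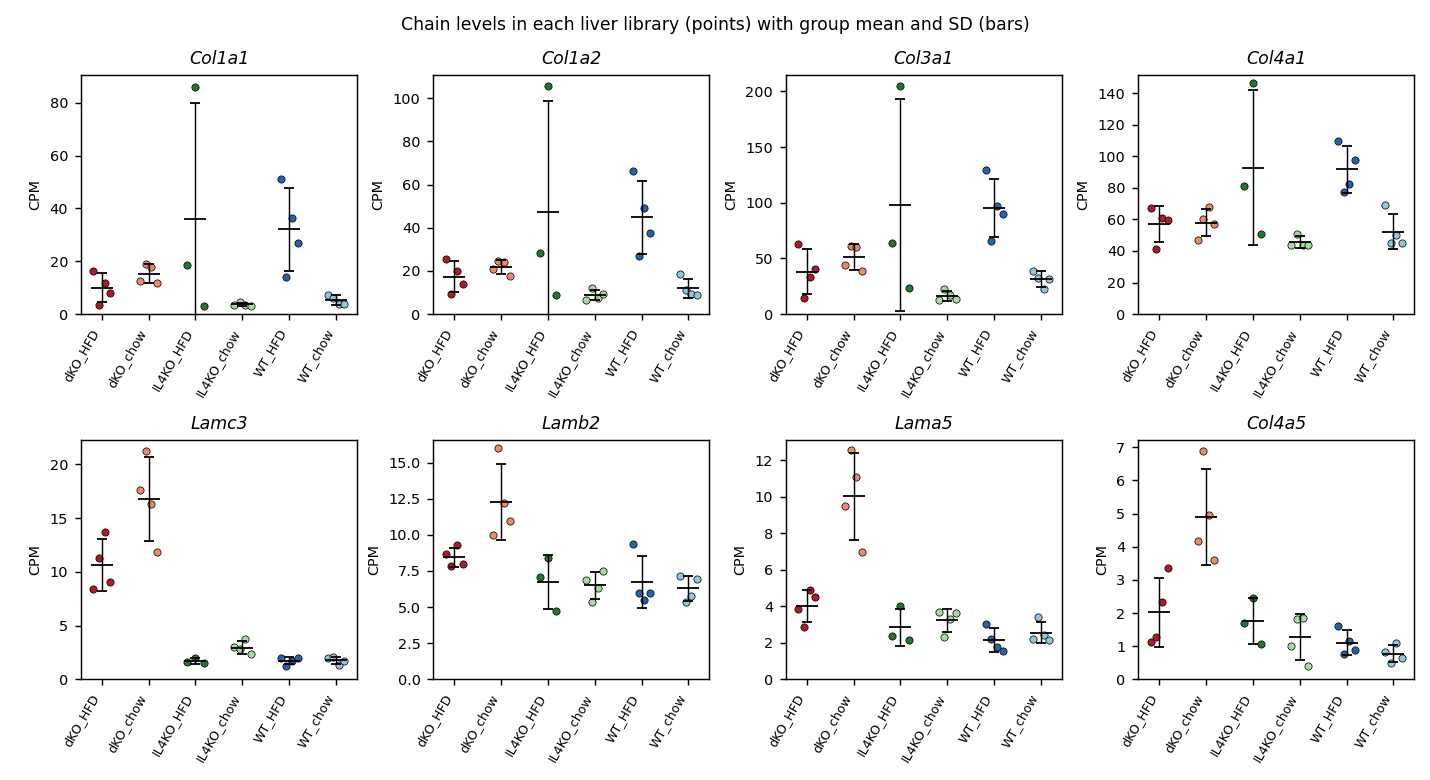
CPM of 8 chains in each library (points) with the group mean and SD (bars); linear axes starting at 0, groups from dKO on HFD at the left to WT on chow at the right. Group means of Col1a1, Col1a2, Col3a1 and Col4a1 are highest in WT and IL4KO on HFD, and those of Lamc3, Lamb2, Lama5 and Col4a5 in dKO on chow.

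Of 4 tested type VI chains 3 rose on HFD in WT, as did 2 of 4 tested fibril-associated chains, beside 9.63% of all tested genes. Col6a6 (log2 fold change -0.24), Col12a1 (0.86) and Col20a1 (-1.12) were not called. In dKO livers, Col6a1 was at 12.3, 6.55, 10.7 and 8.83 CPM on HFD and 10.7, 12.3, 13.3 and 9.85 CPM on chow. Col6a1 in IL4KO livers was at 15.4, 38 and 10.4 CPM on HFD and 5.19, 10.0, 7.44 and 4.6 CPM on chow. WT values of Col6a1 were 25.4, 19.1, 19.4 and 18.2 CPM on HFD and 16, 8.4, 6.97 and 6.86 CPM on chow. In WT, replicate 1 was the highest library on both diets. In dKO livers, Col6a2 was at 9.03, 2.72, 6.69 and 3.91 CPM on HFD and 8.57, 7.2, 7.18 and 5.98 CPM on chow. Col6a2 in IL4KO livers was at 6.06, 24.6 and 3.78 CPM on HFD and 3.34, 3.61, 3.86 and 3.48 CPM on chow. WT values of Col6a2 were 16.9, 7.7, 9.23 and 9.43 CPM on HFD and 5.18, 3.1, 2.99 and 4.13 CPM on chow. Col6a2 was above every WT chow value in all WT livers on HFD. In dKO livers, Col6a3 was at 14.3, 7.54, 10.6 and 8.59 CPM on HFD and 11, 14.4, 13.9 and 7.52 CPM on chow. Col6a3 in IL4KO livers was at 12.2, 27.2 and 9.58 CPM on HFD and 7.14, 8.67, 6.01 and 7.1 CPM on chow. WT values of Col6a3 were 21.8, 10.2, 19.6 and 15.9 CPM on HFD and 12, 8.81, 7.88 and 6.39 CPM on chow. The Col6a3 ranges of the 2 diets overlapped in WT. Log2 fold changes on HFD in WT were 1.10 for Col6a1 (FDR 0.0284), 1.5 for Col6a2 (FDR 0.0269) and 0.94 for Col6a3 (FDR 0.0393). In dKO livers, Col14a1 was at 79.9, 51.5, 73.7 and 51.1 CPM on HFD and 53.6, 51.2, 64.5 and 54.2 CPM on chow. Col14a1 in IL4KO livers was at 87.1, 148 and 64 CPM on HFD and 46.5, 70, 54.6 and 62.7 CPM on chow. WT values of Col14a1 were 117, 106, 89.4 and 109 CPM on HFD and 86, 56, 53.4 and 59.1 CPM on chow. Col14a1 had no overlap between the diets in WT (log2 fold change 0.73, SE 0.22, FDR 0.0238). In dKO livers, Col5a1 was at 12.3, 7.17, 7.94 and 8.83 CPM on HFD and 7.95, 11.5, 9.28 and 6.77 CPM on chow. Col5a1 in IL4KO livers was at 11.8, 25.1 and 8.23 CPM on HFD and 5.56, 7.31, 7.58 and 6.27 CPM on chow. WT values of Col5a1 were 17.7, 11.1, 13.7 and 14.1 CPM on HFD and 8.97, 8.24, 7.52 and 7.14 CPM on chow. Col5a1, a chain of the collagen that nucleates fibrils, was higher in all WT livers on HFD than in any on chow (log2 fold change 0.83, SE 0.25, FDR 0.0265). Col16a1, another fibril-associated chain, averaged 4.48 ± 1.18 CPM in WT on HFD and 2.43 ± 0.76 CPM in WT on chow (SD, n = 4 each; FDR 0.0388).

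Of the basement membrane chains, 1 of 3 tested type IV chains and 2 of 3 laminin beta chains rose on HFD in WT, and 0 of 5 alpha chains. Of all tested genes 9.63% rose. These classes are small, and differences between them were not tested. In dKO livers, Col4a1 was at 66.9, 41, 60.8 and 59.4 CPM on HFD and 47.1, 60.5, 67.7 and 56.8 CPM on chow. Col4a1 in IL4KO livers was at 81.4, 147 and 50.5 CPM on HFD and 43.5, 50.9, 44 and 44 CPM on chow. WT values of Col4a1 were 109.6, 77.1, 82.5 and 97.4 CPM on HFD and 68.9, 45.2, 49.9 and 45.3 CPM on chow. Col4a1 rose on HFD in WT (log2 fold change 0.81, SE 0.24, FDR 0.0214). In dKO livers, Col4a2 was at 50.0, 34, 38.2 and 53.9 CPM on HFD and 35, 44.7, 47 and 40.1 CPM on chow. Col4a2 in IL4KO livers was at 59.4, 91.5 and 41 CPM on HFD and 30.8, 39, 30.6 and 35.9 CPM on chow. WT values of Col4a2 were 71.6, 49.6, 49.8 and 61 CPM on HFD and 53.3, 33.4, 33.2 and 38 CPM on chow. Col4a2, the partner of Col4a1 in the common type IV molecule, had overlapping values on the 2 diets in WT (log2 fold change 0.56, FDR 0.069). The pair lies head to head on chromosome 8 of GRCm38, with RefSeq starts at positions 11312826 and 11312805, 21 bases apart on opposite strands. In dKO livers, Lamb1 was at 10.5, 9.23, 12.7 and 9.45 CPM on HFD and 9.05, 11.1, 11 and 9.43 CPM on chow. Lamb1 in IL4KO livers was at 13.9, 20.0 and 7.56 CPM on HFD and 8.25, 11.3, 10.6 and 7.38 CPM on chow. WT values of Lamb1 were 17.8, 13.6, 14 and 17.9 CPM on HFD and 12.6, 7.99, 7.88 and 7.99 CPM on chow. Lamb1, the beta chain of many laminins, was above the chow range in all WT livers on HFD (log2 fold change 0.81, SE 0.21, FDR 0.0105). In dKO livers, Lamc1 was at 26.5, 19.4, 21.2 and 21.6 CPM on HFD and 23.4, 22.3, 24.3 and 20.3 CPM on chow. Lamc1 in IL4KO livers was at 22.7, 32.6 and 20.6 CPM on HFD and 19.1, 20.4, 18.6 and 22 CPM on chow. WT values of Lamc1 were 28.1, 23.5, 21.8 and 27.4 CPM on HFD and 20.3, 16.3, 15.7 and 19 CPM on chow. The Lamc1 values in WT did not overlap between diets either (log2 fold change 0.51, SE 0.13, FDR 0.00747). In dKO livers, Lamb3 was at 9.48, 7.95, 9.61 and 2.27 CPM on HFD and 1.72, 4.39, 3.73 and 2.38 CPM on chow. Lamb3 in IL4KO livers was at 12, 10.5 and 10.1 CPM on HFD and 3.71, 2.98, 3.72 and 5.99 CPM on chow. WT values of Lamb3 were 20.8, 5.93, 17.6 and 7.2 CPM on HFD and 2.77, 3.26, 3.26 and 1.97 CPM on chow. Lamb3, the beta chain of the laminin that anchors epithelia, had the second largest rise of any chain on HFD in WT (log2 fold change 2.17, SE 0.45, FDR 0.0025).

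The chains that fell on HFD in WT included 2 fibrillar ones. In dKO livers, Col5a3 was at 69.4, 48.7, 63 and 51.5 CPM on HFD and 63.2, 60.1, 74.3 and 66.9 CPM on chow. Col5a3 in IL4KO livers was at 67.2, 69.7 and 59.9 CPM on HFD and 90.6, 96.4, 82.2 and 93.2 CPM on chow. WT values of Col5a3 were 57, 56.2, 52.8 and 56.7 CPM on HFD and 82.1, 75.4, 77.8 and 63.5 CPM on chow. Col5a3, the third type V chain, was lower in each WT liver on HFD than in any on chow (log2 fold change -0.42, SE 0.10, FDR 0.005), opposite to Col5a1. Col13a1, a transmembrane collagen, averaged 1.67 ± 0.716 CPM in WT on HFD and 3.51 ± 1.24 CPM in WT on chow (SD, n = 4 each; log2 fold change -1.08, SE 0.31, FDR 0.0189). Col11a2, a minor fibrillar chain at low level, was also lower (log2 fold change -1.90, FDR 0.00494). Of the 16 calls for HFD in WT, those for Col1a1, Col5a3, Col11a2, Lamb1, Lamb3 and Lamc1 held under every alternative in which the gene passed the filter on low counts, which for Col11a2 were 12 of 14. The number of calls fell to 8, 6 or 7 without WT chow replicate 2, 3 or 4 and to 7 or 10 without WT HFD replicate 1 or 4.

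The promoters of a few chains that moved are printed to show the DNA that precedes them, from RefSeq on GRCm38, 250 bases up to the start, 5′ to 3′ on the gene's strand. Capitals mark a TATA box (TATAA) or a GC box (GGGCGG) on either strand, including overlapping matches. Col3a1, Col5a1 and Col6a3 rose on HFD in WT, and Lama5 and Lama2 rose in dKO on chow.
Col3a1, chr1:45311288-45311537, plus strand: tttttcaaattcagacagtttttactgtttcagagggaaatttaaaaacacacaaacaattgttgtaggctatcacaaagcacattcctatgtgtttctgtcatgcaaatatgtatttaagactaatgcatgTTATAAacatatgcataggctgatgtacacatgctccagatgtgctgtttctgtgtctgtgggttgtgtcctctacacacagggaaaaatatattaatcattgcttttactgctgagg
Col5a1, chr2:27886175-27886424, plus strand: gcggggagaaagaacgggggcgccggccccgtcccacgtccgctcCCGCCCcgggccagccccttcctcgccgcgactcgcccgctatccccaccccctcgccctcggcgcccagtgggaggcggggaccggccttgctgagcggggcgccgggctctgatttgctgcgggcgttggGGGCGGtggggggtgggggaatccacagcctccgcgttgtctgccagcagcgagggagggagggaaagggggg
Col6a3, chr1:90843972-90844221, minus strand: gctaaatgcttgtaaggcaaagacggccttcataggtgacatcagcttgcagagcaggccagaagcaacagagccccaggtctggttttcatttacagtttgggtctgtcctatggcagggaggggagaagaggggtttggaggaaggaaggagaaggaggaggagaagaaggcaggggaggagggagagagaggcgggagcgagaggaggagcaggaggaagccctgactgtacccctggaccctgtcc
Lama5, chr2:180225860-180226109, minus strand: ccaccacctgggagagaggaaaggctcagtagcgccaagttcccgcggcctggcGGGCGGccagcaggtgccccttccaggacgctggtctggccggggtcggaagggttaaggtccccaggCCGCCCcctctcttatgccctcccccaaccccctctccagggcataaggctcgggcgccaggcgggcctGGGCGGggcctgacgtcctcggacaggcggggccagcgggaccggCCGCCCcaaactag
Lama2, chr10:27616943-27617192, minus strand: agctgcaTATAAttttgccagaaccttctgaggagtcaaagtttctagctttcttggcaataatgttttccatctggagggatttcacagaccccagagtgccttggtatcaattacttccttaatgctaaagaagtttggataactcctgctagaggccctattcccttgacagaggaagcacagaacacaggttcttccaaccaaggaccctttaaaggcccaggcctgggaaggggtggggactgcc
The Col3a1 window held overlapping TATA matches, the Col5a1 window 2 GC boxes and the Lama5 window 4 GC boxes, while the Col6a3 window held none of the motifs searched. Of the 55 members, 40 had a promoter in the RefSeq table. The GC box was in 57.5% of them and in 32.9% of all 27025 promoters of this length, the TATA box in 22.5% and 23.5%, and the CCAAT box (CCAAT) in 32.5% and 34.5%. These matches describe letters and no binding was measured.

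In IL4KO livers HFD went with higher Col1a1, Col1a2, Col3a1 and Col6a1, and most calls depended on 1 library. Of 36 tested chains, 11 rose and 2 fell on HFD in IL4KO, against 5.14% and 3.94% of all tested genes. The rises were in Col1a1 (log2 fold change 3.29, SE 0.78, FDR 0.0144), Col1a2 (log2 fold change 2.42, SE 0.59, FDR 0.0172), Col3a1 (log2 fold change 2.55, SE 0.55, FDR 0.0086), Col4a1, Col4a2, Col5a1, Col6a1, Col6a2, Col6a3, Col12a1 and Col14a1. Replicate 2 of IL4KO on HFD had the highest value of the 23 libraries for Col1a1, Col1a2, Col3a1 and Col4a1, whereas Col1a1 in replicate 3 was below the range of IL4KO on chow. Without replicate 2 the count of calls was 1, and that call was Col5a3 (log2 fold change -0.47, SE 0.11, FDR 0.0103 with all libraries). Without replicate 3 the count was 19, and without IL4KO chow replicate 1 or 3 it was 7 or 8. In replicate 2 the stellate markers summed to 231.0 CPM, the portal fibroblast markers to 20.8 CPM, the cholangiocyte markers to 170.1 CPM and the hepatocyte markers to 89940 CPM. Across the other 2 IL4KO livers on HFD, stellate markers were at 166.8 and 147.5 CPM, portal fibroblast markers at 11.9 and 5.94 CPM, and cholangiocyte markers at 48.8 and 42.9 CPM. Their hepatocyte markers were at 130400 and 121300 CPM. Sinusoidal endothelium markers summed to 593 CPM in replicate 2 and to 515.2 and 466.1 CPM in the other 2. Myofibroblast and smooth muscle markers summed to 19.7 CPM in replicate 2 and to 11.4 and 6.48 CPM in the other 2. Most of the cholangiocyte sum came from 1 gene, Spp1, which averaged 81.3 ± 70.4 CPM in IL4KO on HFD (SD, n = 3). Epcam and Krt19 of the same list averaged 0.939 and 0.578 CPM there. The part of these markers in the collagen values was not tested. The diet effect in IL4KO minus that in WT was called for 0 of 36 chains by edgeR, with 2 at an unadjusted p under 0.05 (Col13a1 and Col27a1) and 1 call by DESeq2; of all tested genes 0.0155% were higher and 0.031% lower.

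Col27a1, a fibrillar chain with cartilage as its best known site, went down on HFD in IL4KO. In dKO livers, Col27a1 was at 49.6, 31.3, 20.0 and 20.5 CPM on HFD and 26.8, 27.2, 30.2 and 25.6 CPM on chow. Col27a1 in IL4KO livers was at 18.3, 17.9 and 21.2 CPM on HFD and 47.3, 59.7, 36.7 and 50.7 CPM on chow. WT values of Col27a1 were 50.6, 56, 33.2 and 61.9 CPM on HFD and 42.3, 51.9, 55.5 and 55.9 CPM on chow. IL4KO livers on HFD were below all IL4KO livers on chow (log2 fold change -1.35, SE 0.27, FDR 0.00525). They were also below all WT livers on HFD (log2 fold change -1.41, SE 0.27, FDR 0.00691). IL4KO livers differed from WT livers in few other chains. On chow 0 chains rose and 1 fell (5.93% and 3.68% of all tested genes), and on HFD 1 rose and 1 fell (1.73% and 1.29%). The chain that rose on HFD was Col13a1, which averaged 5.65 ± 0.615 CPM in IL4KO on HFD (SD, n = 3) and 1.67 ± 0.716 CPM in WT on HFD (SD, n = 4; log2 fold change 1.76, SE 0.33, FDR 0.00358).

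The chain that fell on chow was Col17a1, a transmembrane collagen of hemidesmosomes, whose counts were few. IL4KO chow libraries had 0 to 3 Col17a1 counts and WT chow libraries 5 to 20 (FDR 0.018). Libraries labelled dKO had 0 to 2 counts on either diet, against 8 to 17 in WT on HFD (FDR 4.99e-05 on chow and 0.000762 on HFD). The chow call in IL4KO was lost without WT chow replicate 1 and without IL4KO chow replicate 2 or 4.

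In libraries labelled dKO on chow, Lamc3, Lama5, Lamb2, Col4a5 and Col6a6 were higher than in WT on chow. Against WT on chow, 11 of 36 tested chains rose and 3 fell, while 24.4% of all tested genes rose and 21.9% fell, so that the share of chains that rose, 30.6%, was not far above that of all genes. Against IL4KO on chow, 12 rose and 3 fell, beside 23% and 22.2% of all tested genes. In the same libraries all 7 tested cholangiocyte markers were higher than in WT on chow, with a sum of 463 to 837 CPM in dKO on chow and 44.7 to 52.2 CPM in WT on chow. The hepatocyte sum was 85400 to 95400 CPM in dKO on chow and 121000 to 124000 CPM in WT on chow. The part of both marker lists in the chain values was not tested. Of the 5 alpha chains 3 rose, of the 3 beta chains 1, and of the 8 tested fibrillar collagens 1 rose and 1 fell.

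Lamc3 encodes a gamma chain that is found in few tissues and is known from nerve, testis and skin. In dKO livers, Lamc3 was at 8.43, 11.3, 13.7 and 9.06 CPM on HFD and 17.6, 21.3, 16.3 and 11.9 CPM on chow. Lamc3 in IL4KO livers was at 1.6, 2.01 and 1.48 CPM on HFD and 2.97, 2.8, 3.72 and 2.37 CPM on chow. WT values of Lamc3 were 2.02, 1.23, 1.75 and 2.02 CPM on HFD and 1.94, 2.12, 1.36 and 1.69 CPM on chow. Every dKO liver was above every liver of the other genotypes. In dKO on chow the rise was 3.23 on the log2 scale against WT (SE 0.21, FDR 4.06e-10) and 2.51 against IL4KO (FDR 3.15e-08). An annotated antisense gene overlaps 6.27% of the exon bases of Lamc3, and the strand setting of the counting is not given in the sources used here. Lama3 and Lamb3 were not called between dKO and WT on chow, with log2 fold changes of 0.18 and 0.13.

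In dKO livers, Lama5 was at 3.84, 2.84, 4.88 and 4.53 CPM on HFD and 9.48, 12.6, 11.1 and 6.96 CPM on chow. Lama5 in IL4KO livers was at 2.4, 4.02 and 2.16 CPM on HFD and 3.71, 2.35, 3.29 and 3.62 CPM on chow. WT values of Lama5 were 3.06, 2.23, 1.75 and 1.58 CPM on HFD and 2.22, 3.42, 2.45 and 2.16 CPM on chow. Lama5, the alpha chain of mature epithelial and vascular basement membranes, was higher in every dKO liver on chow than in any other library (log2 fold change 1.96, SE 0.24, FDR 2.87e-06 against WT). In dKO livers, Lamb2 was at 8.66, 7.83, 9.29 and 7.97 CPM on HFD and 10.0, 16, 12.2 and 11 CPM on chow. Lamb2 in IL4KO livers was at 7.09, 8.38 and 4.72 CPM on HFD and 6.86, 5.33, 6.29 and 7.52 CPM on chow. WT values of Lamb2 were 9.39, 6, 5.49 and 5.94 CPM on HFD and 7.12, 5.38, 5.8 and 6.95 CPM on chow. Lamb2 values in dKO on chow lay above those of all other groups (log2 fold change 0.97, SE 0.18, FDR 0.000191 against WT). Smaller rises against WT were those of Lama2 (1.14, FDR 0.0325), Lama4 (0.59, FDR 0.0397) and Lamc1 (0.34, FDR 0.0295). Each of these calls was lost under 5 or more of 14 alternatives.

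Among collagens in dKO on chow, Col4a5, a type IV chain of specialised basement membranes, averaged 4.91 ± 1.44 CPM, against 0.767 ± 0.255 CPM in WT on chow (SD, n = 4 each; log2 fold change 2.68, SE 0.39, FDR 1.69e-05). The neighbouring Col4a6, whose RefSeq start lies 1343 bases away on chromosome X, was too low to be tested, as were Col4a3 and Col4a4. Col6a6, a further type VI chain, had 31 to 45 counts in dKO chow libraries and 1 to 7 in WT chow libraries (log2 fold change 2.47, SE 0.70, FDR 0.00657). Col16a1 (log2 fold change 0.95, SE 0.29, FDR 0.0101) and Col5a2 (log2 fold change 1.52, SE 0.52, FDR 0.0215) also rose against WT. Col1a1 had no overlap between dKO and WT on chow and was not called (log2 fold change 1.54, FDR 0.0747), whereas against IL4KO on chow it rose (2.05, FDR 0.0333), as did Col3a1 (1.61, FDR 0.0172) and Col11a2.

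In dKO livers, Col15a1 was at 1.35, 0.659, 1.35 and 5.62 CPM on HFD and 11, 16.7, 10.7 and 11.6 CPM on chow. Col15a1 in IL4KO livers was at 1.03, 5.03 and 2.7 CPM on HFD and 2.41, 2.62, 3.15 and 3.62 CPM on chow. WT values of Col15a1 were 8.55, 3.54, 5.96 and 5.34 CPM on HFD and 5.55, 12.2, 4.98 and 5.83 CPM on chow. Col15a1, a multiplexin found at vessel and duct basement membranes, rose in dKO on chow against IL4KO (log2 fold change 2.11, SE 0.50, FDR 0.00196) and was not called against WT, where replicate 2 stood far above the others. In dKO livers, Col18a1 was at 1171, 1144, 1123 and 1294 CPM on HFD and 1026, 1031, 1134 and 1063 CPM on chow. Col18a1 in IL4KO livers was at 1202, 1037 and 1288 CPM on HFD and 1380, 1366, 1459 and 1494 CPM on chow. WT values of Col18a1 were 1120, 1205, 1080 and 1130 CPM on HFD and 1361, 1404, 1258 and 1234 CPM on chow. All dKO livers on chow were below all WT and IL4KO livers on chow for Col18a1 (log2 fold change -0.31, SE 0.09, FDR 0.0057 against WT). Col27a1 was also lower in dKO on chow (-0.91 against WT, FDR 0.00369), as was Col5a3 against IL4KO (-0.46, FDR 0.000762). Of 14 calls against WT 10 held under every alternative in which the gene passed the filter on low counts, the others being Col5a2, Lama2, Lama4 and Lamc1. Of 15 calls against IL4KO 11 held, the others being Col1a1, Col3a1, Col5a2 and Col11a2.

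In libraries labelled dKO, HFD went with lower Col15a1, Lama5, Lamc3 and Col4a5. On HFD 1 of 36 tested chains rose and 9 fell, while 19.4% of all tested genes rose and 20.5% fell, so that the share of chains that fell, 25%, was near that of all genes. Those that fell included Col15a1 (log2 fold change -2.59, SE 0.48, FDR 0.0004), Col25a1, Lama5 (log2 fold change -1.33, SE 0.22, FDR 0.000112), Col4a5 (log2 fold change -1.30, SE 0.33, FDR 0.00334), Col11a2, Col16a1, Lamc3 (log2 fold change -0.65, SE 0.17, FDR 0.00425) and Lamb2. Lamb3 was the chain that rose (log2 fold change 1.26, SE 0.41, FDR 0.0204), as it did in WT, but the call in dKO was lost under 6 of 14 alternatives, without dKO chow replicate 1 or 4 and without dKO HFD replicate 1 or 3 among them (FDR up to 0.0701). The 7 tested cholangiocyte markers all fell with the diet in dKO, to a sum of 107 to 301 CPM on HFD, against 463 to 837 CPM on chow. Most of these sums came from Spp1, at 156 ± 78.4 CPM on HFD and 624 ± 164 CPM on chow (SD, n = 4 each). The 301 CPM was that of dKO HFD replicate 4, where Lamb3 was at 2.27 CPM, Col15a1 at 5.62 CPM and the adipocyte sum at 0 CPM. The part of the cholangiocyte markers in the chain values was not tested. The calls for Col15a1, Col4a5, Lama5 and Lamc3 held under every alternative. Col1a1, Col1a2 and Col3a1, which rose on HFD in WT, were not called in dKO, with log2 fold changes of -0.64 for Col1a1, -0.35 for Col1a2 and -0.45 for Col3a1. Their spread was wide, since Col1a1 in dKO livers on HFD was at 16.5, 3.54, 11.9 and 8.05 CPM.

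**Figure D4:**
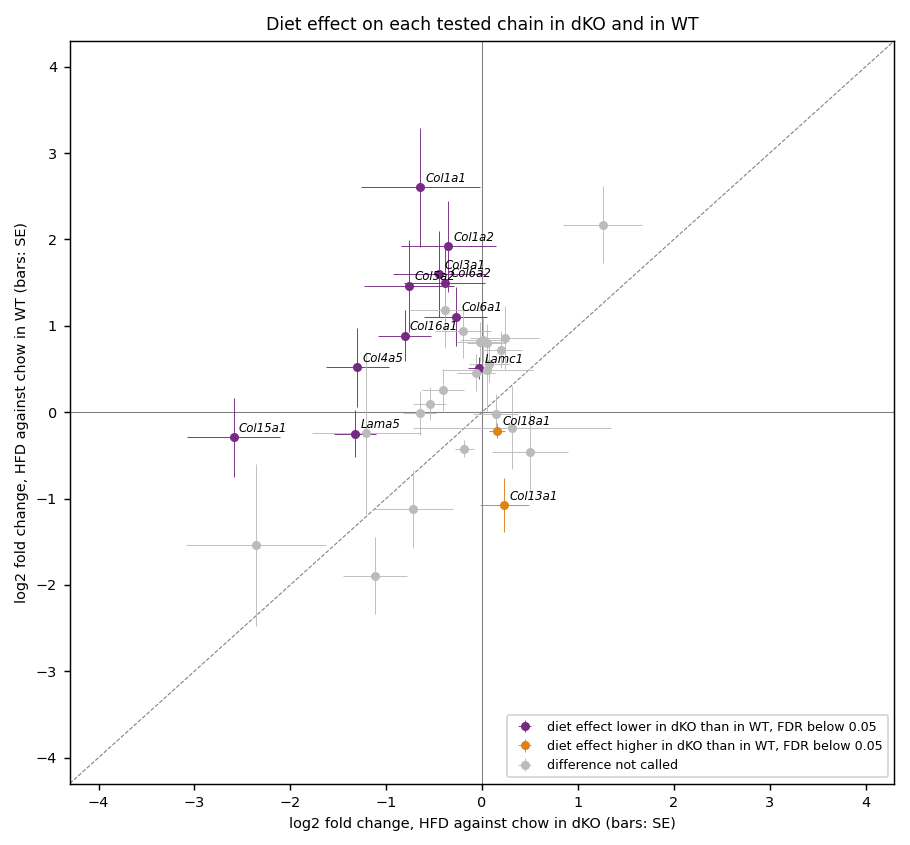
Log2 fold change on HFD in dKO (horizontal axis) and in WT (vertical axis) for 35 tested chains, with SE bars; the dashed line marks equal effects. Labelled chains have a diet effect that differed between dKO and WT at an FDR below 0.05, and 11 of those 13 lie above the line.

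The diet effect on Col1a1, Col15a1 and Col16a1 was lower in dKO than in WT when the difference itself was tested. Values here are differences between 2 log2 fold changes of HFD over chow. The diet effect in dKO minus that in WT was called for 14 chains, 2 higher and 12 lower, beside 12.6% and 12.6% of all tested genes. The median of this difference was -0.79 over the tested chains and 0.01 over all tested genes. The most negative values were those of Col1a1 (difference -3.25, SE 0.93, FDR 0.0191), Col15a1 (difference -2.30, SE 0.66, FDR 0.019), Col1a2 (difference -2.27, SE 0.73, FDR 0.0316) and Col5a2 (difference -2.23, SE 0.71, FDR 0.0292). Col16a1 had the lowest FDR (difference -1.70, SE 0.40, FDR 0.00646). Higher in dKO were the differences for Col13a1 (1.31) and Col18a1 (0.37). Set against IL4KO, the same difference was called for 15 chains, 2 higher and 13 lower, beside 12.7% and 11.7% of all tested genes. The dKO libraries enter both differences. In the difference against WT, the calls for Col1a1, Col15a1 and Col16a1 held under every alternative, and the count was 4 to 9 without dKO HFD replicate 2, dKO chow replicate 2 or 3, WT HFD replicate 1 or 4, or WT chow replicate 2, 3 or 4. In the difference against IL4KO the count was 2 without IL4KO HFD replicate 2, 23 without IL4KO HFD replicate 3, 9 without dKO chow replicate 2 and 8 without dKO HFD replicate 2.

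Between genotypes on HFD, libraries labelled dKO had higher Lamc3 and Col13a1 than WT. Against WT, 5 of 36 chains rose and 8 fell, beside 12.9% and 11.6% of all tested genes. Those that rose included Lamc3 (log2 fold change 2.59, SE 0.21, FDR 2e-08), Col13a1 (log2 fold change 1.76, SE 0.30, FDR 0.000252), Col11a2 and Lama5. Those that fell were Col17a1, Col15a1, Col6a1 (log2 fold change -1.11, SE 0.33, FDR 0.0204), Col12a1, Col27a1, Col14a1, Col4a1 and Lamb1. Col1a1, Col1a2 and Col3a1 were not called, with log2 fold changes of -1.71, -1.40 and -1.35 and FDR of 0.0552, 0.0513 and 0.0507. The count of 13 became 6 without WT HFD replicate 1 or 4 or dKO HFD replicate 2, and 7 without dKO HFD replicate 4. The calls for Lamc3 and Col13a1 held under every alternative, and that for Col17a1 under the 11 in which it passed the filter on low counts. Of the 13 calls, 4 held under every alternative that gave a value. The calls for Col12a1, Col14a1 and Col6a1 were lost under 6, 3 and 2 of 14 alternatives, with FDR up to 0.145, 0.0664 and 0.0678. Those for Col15a1, Lamb1, Col4a1, Col27a1 and Lama5 were lost under 9, 7, 6, 5 and 1 of 14. The Col11a2 call was lost under 7 of 12. Against IL4KO on HFD, 1 chain rose and 0 fell, beside 0.946% and 1.56% of all tested genes. That chain was Lamc3 (log2 fold change 2.64, SE 0.25, FDR 1.8e-06), and its call held under every alternative. Without IL4KO HFD replicate 3 the count was 14.

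Ratios between chains, in CPM per kb, showed how members moved relative to each other within a library. Lamc3 and Lamc1 are both gamma chains and Lamb1 and Lamb2 both beta chains, so these are alternatives rather than partners in a trimer. Col1a1 over Col1a2 was 0.496 ± 0.102 in dKO on HFD, 0.631 ± 0.0722 in dKO on chow, 0.62 ± 0.102 in WT on HFD and 0.403 ± 0.0684 in WT on chow (SD, n = 4 each). Lamc3 over Lamc1 was 0.638 ± 0.195 in dKO on HFD and 0.962 ± 0.205 in dKO on chow, so that these chains were at like levels in dKO on chow. In WT that ratio was 0.0902 ± 0.0155 on HFD and 0.13 ± 0.0261 on chow. Lamb1 over Lamb2 was 1.2 ± 0.0847 in dKO on HFD and 0.818 ± 0.0972 in dKO on chow, against 2.37 ± 0.457 in WT on HFD and 1.4 ± 0.251 in WT on chow. These ratios are a description and no test was made on them.

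Genes that make, cross-link, bind or sense these chains were counted from lists. Of all tested genes, 24.4% rose and 21.9% fell in dKO against WT on chow, 19.4% rose and 20.5% fell on HFD in dKO, and 9.63% rose and 9.84% fell on HFD in WT. Of 28 tested genes for collagen processing and cross-linking, 11 rose (39.3%) and 4 fell in dKO against WT on chow and 6 rose (21.4%) and 3 fell on HFD in WT. On HFD in dKO 1 of them rose and 5 fell (17.9%), a share below that of all genes. Loxl4, a lysyl oxidase that cross-links matrix, averaged 9.64 ± 1.99 CPM in dKO on chow and 0.599 ± 0.116 CPM in WT on chow (SD, n = 4 each; log2 fold change 3.98, FDR 9.41e-09). Loxl4 fell by 2.21 on the log2 scale on HFD in dKO (FDR 2.9e-06). Other genes of the list went the other way. Colgalt2 (log2 fold change -2.04, FDR 0.000216) and Mia3 (-0.29, FDR 0.0182) were lower in dKO than in WT on chow. Bmp1 was not called in that comparison and fell on HFD in WT (log2 fold change -0.51, FDR 0.000174). Mia3 rose on HFD in dKO (log2 fold change 0.52, FDR 0.000273). Of 13 tested receptors, 9 rose (69.2%) and 0 fell in dKO against WT on chow, and 0 rose and 8 fell (61.5%) on HFD in dKO. Among them the collagen receptor Ddr1 was at 11.3 ± 4.02 CPM in dKO on chow and 1.05 ± 0.445 CPM in WT on chow (SD, n = 4 each; FDR 6.1e-07). Itgb4, the integrin chain of hemidesmosomes that binds laminin, rose by 3.03 on the log2 scale (FDR 3.75e-05), and Itga3, a laminin-binding integrin chain, by 1.10 (FDR 4.28e-06). Of 11 tested basement membrane partners, 4 rose (36.4%) and 0 fell in dKO against WT on chow. Nid1, which links laminin to collagen IV, was at 42.4 ± 5.79 CPM in dKO on chow and 17.4 ± 2.92 CPM in WT on chow (SD, n = 4 each; FDR 0.00292), and it also rose on HFD in WT (log2 fold change 1.13, FDR 0.019). Nid2 of the same list fell on HFD in WT (log2 fold change -0.63, FDR 0.0192) and in dKO (-1.38, FDR 8.72e-06). On HFD, 4 of these partners rose and 1 fell in WT, and 1 rose and 2 fell in dKO. Fbln2, which rose on HFD in WT (log2 fold change 1.42, FDR 0.00507), is in this list and in that of portal fibroblast markers. Of 20 tested genes of TGF-beta signalling, 7 rose (35%) and 1 fell in dKO against WT on chow, and 5 rose (25%) and 1 fell on HFD in WT. On HFD in dKO 0 of them rose and 6 fell (30%).

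**Figure D5:**
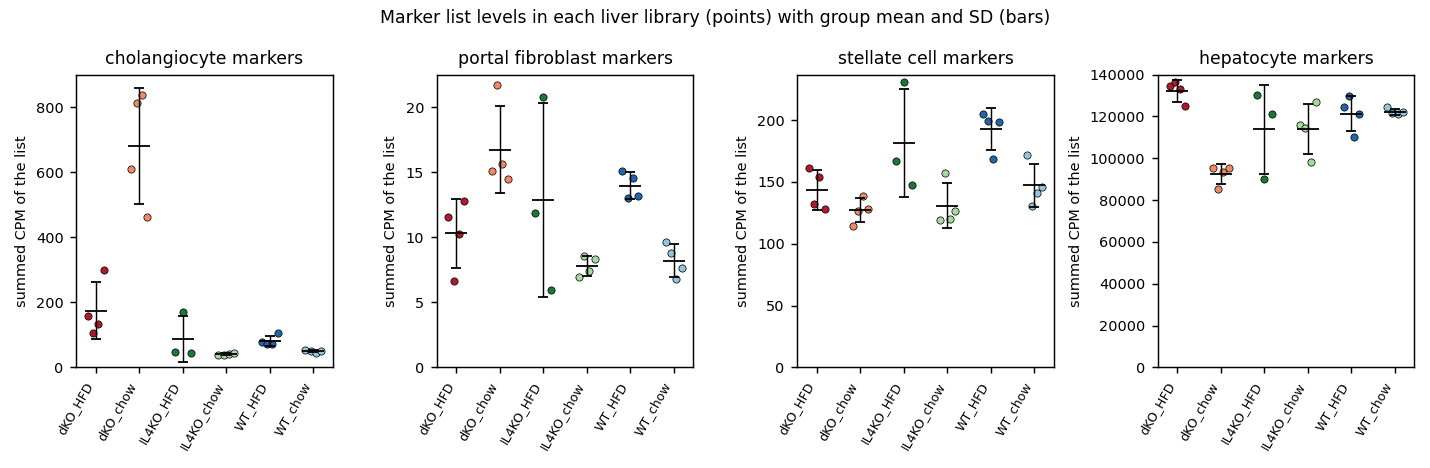
Summed CPM of 4 marker lists in each library (points) with the group mean and SD (bars), groups from dKO on HFD at the left to WT on chow at the right, linear axes starting at 0. Cholangiocyte markers are highest in dKO on chow, at 463 to 837 CPM, and stellate markers in WT and IL4KO on HFD.

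Cholangiocyte and portal fibroblast markers were higher in dKO on chow than in WT on chow, and 6 of 8 hepatocyte markers were lower. Cholangiocyte markers summed to 107 to 301 CPM in dKO on HFD, 463 to 837 CPM in dKO on chow, 42.9 to 170 CPM in IL4KO on HFD, 37.3 to 43.6 CPM in IL4KO on chow, 70.6 to 105 CPM in WT on HFD and 44.7 to 52.2 CPM in WT on chow. Spp1 alone made up most of these sums. It averaged 624 ± 164 CPM in dKO on chow and 39.7 ± 3.18 CPM in WT on chow (SD, n = 4 each). Epcam, by contrast, averaged 9.55 CPM in dKO on chow and 0.893 CPM in WT on chow. Portal fibroblast markers, of which 3 of 4 tested rose in dKO against WT on chow, summed to 14.5 to 21.7 CPM in dKO on chow and 6.79 to 9.62 CPM in WT on chow. Stellate markers were at 115 to 138 CPM in dKO on chow, with 2 of 9 tested higher and 2 lower than in WT on chow, and sinusoidal endothelium markers at 394 to 462 CPM, with 1 of 9 higher and 3 lower. In that comparison 24.4% of all tested genes rose and 21.9% fell, and the stellate shares, 22.2% each way, were near these. By edgeR, 0 of 3 tested myofibroblast and smooth muscle markers and 0 of 3 tested mesothelium markers were called in dKO against WT on chow or with HFD in any genotype. At an unadjusted p under 0.05 there was 1 of these, a myofibroblast and smooth muscle marker with HFD in IL4KO.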

How the data were processed

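Estimated counts per gene symbol for 23 liver libraries were deposited by the authors. Per the submitters' processing notes, bcl2fastq 2.16, TopHat2 2.0.8, Partek and the mm10 build were used; other settings, annotation and strand among them, were not given in the sources used. Normalized log2 values of 14078 genes (44 members) were deposited too. The estimated counts were rounded, and edgeR 4.0.16 in R 4.3.3 filtered them by group (12891 genes left), scaled them by trimmed mean of M values and fitted 6 group means by robust quasi-likelihood (17 residual degrees of freedom, biological coefficient of variation 0.156). All tests were two-sided and called at 0.05 after adjusting by Benjamini-Hochberg over these genes. The 12 comparisons were 9 pairs and 3 differences of diet effects. No 2 libraries were identical, and replicates correlated at 0.9621 to 0.9942. Series text gives mice per group, so replicates are separate animals; no batch or pairing is labelled. Lengths came from GENCODE vM21 and promoters from RefSeq. Alternatives were RLE factors, no filter, DESeq2 1.42.0, limma 3.58.1 on the deposited log2 values, compared groups alone, thinning to the smallest library and leaving out each library. The pipeline was tested on simulated data. Up to 20 called members with a group mean of at least 2 CPM are given in every library, with up to 4 genes for each other list. The results of 1 tested chain are not reported here, and it stays in the counts of chains. Members and lists were chosen with earlier results of these data known.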

Additional observations from a re-analysis of the deposited data

Results flagged for a closer look

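Sets of 4 values were looked at, 1 set for each of 20 chains in each group of 4 libraries. Chance flags about 1 in 20 for independent, normally spread values, and chains read in the same libraries need not be independent. Of these 100 sets, 8 held a value far from the other 3, in each case the highest. These were Col4a1 at 50.9 CPM in IL4KO chow replicate 2, Col6a1 at 25.4 CPM in WT HFD replicate 1 and at 16 CPM in WT chow replicate 1, and Lamb1 at 12.6 CPM in WT chow replicate 1. Col15a1 stood out at 5.62 CPM in dKO HFD replicate 4, 16.7 CPM in dKO chow replicate 2 and 12.2 CPM in WT chow replicate 2, and Lamb2 at 9.39 CPM in WT HFD replicate 1. IL4KO on HFD, with 3 mice, was not looked at in this way.

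The diet effect differed between libraries labelled dKO and WT for 14 chains, of which 13 are given here by the difference of log2 fold changes. It was -3.25 for Col1a1, -2.30 for Col15a1, -2.27 for Col1a2, -2.23 for Col5a2, -2.05 for Col3a1, -1.89 for Col6a2, -1.82 for Col4a5, -1.70 for Col16a1, -1.38 for Col6a1, -1.08 for Lama5 and -0.54 for Lamc1. It was 0.37 for Col18a1 and 1.31 for Col13a1. Of all tested genes, 12.6% were higher and 12.6% lower in this difference. Of the 14 calls 3 held under every alternative, those for Col1a1, Col15a1 and Col16a1. The calls for Col6a1, Col3a1 and Col6a2 were lost under 13, 12 and 9 of 22 alternatives. Without dKO HFD replicate 2 the count of calls was 4.

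Between dKO and IL4KO the diet effect differed for 15 chains. The difference was -3.94 for Col1a1, -3 for Col3a1, -2.77 for Col1a2, -2.61 for Col15a1, -2.35 for Col5a2, -2.09 for Col6a2, -1.91 for Col6a1, -1.81 for Col16a1, -1.76 for Col4a5, -1.37 for Col6a3, -1.17 for Col5a1, -1.17 for Lama5 and -1.05 for Col4a1. It was 0.43 for Col18a1 and 1.49 for Col27a1. Of all tested genes, 12.7% were higher and 11.7% lower in this difference. Of the 15 calls 2 held under every alternative. These values rest in part on replicate 2 of IL4KO on HFD, without which the count of calls was 2. The count was 9 without dKO chow replicate 2 and 8 without dKO HFD replicate 2.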

How the results depend on the processing

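Of 114 calls of chains over the 12 comparisons, 44 held under every alternative that gave a value (11 or 12 of 14 for Col17a1 and 12 for Col11a2) and 0 changed sign. Calls lost were 0 with RLE factors, 15 without a filter, 17 with limma, 1 of 113 with DESeq2, 22 of 108 with the compared groups alone and 19 of 106 after thinning. Some counts of called chains moved by over 1.5 times, and the cause was not tested. With the compared groups alone they were 9 for the diet effect in dKO minus IL4KO, 3 for IL4KO against WT on chow, 1 for IL4KO against WT on HFD and 3 for HFD in IL4KO. With DESeq2 they were 0 for IL4KO against WT on chow, 3 for dKO against IL4KO on HFD and 1 for the diet effect in IL4KO minus WT. Limma gave 2 for dKO against IL4KO on HFD, and thinning gave 7 for dKO minus WT and 0 for IL4KO against WT on chow. Leaving out 1 library at a time, counts ran from 6 to 18 for dKO against WT on HFD, 1 to 14 for dKO against IL4KO on HFD, 0 to 1 for IL4KO against WT on chow, 6 to 17 for HFD in WT, 1 to 19 for HFD in IL4KO, 4 to 17 for dKO minus WT and 2 to 23 for dKO minus IL4KO. No paired analysis was possible because the replicate numbers follow accession order and pair no mice. Counts were few for the 19 untested chains, 4 of them at 0 in all libraries, and for Col17a1, Col6a6 and Col25a1, at no more than 45 in any library.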
